A study of Mus musculus with 5 samples.

Results

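HSF1 ChIP-seq peaks that were called in untreated neurons, that overlapped no peak called after NMDA and that lay at the end of a protein-coding gene are described here. They were selected on measured values, namely the calls in both lists and the summit position. A protein-coding gene on chromosomes 1 to 19 or X had to start or end no more than 1000 bp from the summit, and the interval could share no base with an NMDA peak. These were 461 of the 3316 control peaks, and 6962 peaks were listed in the 2 conditions together. Lack of overlap was common in the control list. Of its 490 peaks at gene ends, 461 (94.1%) overlapped no NMDA peak. Of all 3316 control peaks, 3218 lay on these chromosomes and overlapped no NMDA peak. The cells were primary cortical neurons of wild-type Swiss-Webster mouse embryos at embryonic day 16, kept in culture until day 13. The groups were 2 HSF1 ChIP libraries after 50 µM NMDA for 10 min with 20 min of recovery in drug-free medium, 2 HSF1 ChIP libraries from neurons without treatment, and 1 input library of sheared chromatin, also without treatment. NMDA activates the glutamate receptors named after it. Each condition is 1 peak list that combines its libraries, so no value carries a replicate error and nothing could be tested across replicates. The lists hold no RNA levels, so the labelled cell type could not be checked against its markers.

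HSF1 is the transcription factor of the heat shock response. In resting cells most of it is held inactive by chaperones. Under stress it forms trimers that bind heat shock elements, inverted repeats of the motif GAA, at genes for chaperones and ubiquitin. HSF1 also occupies genes outside the heat shock response in unstressed cells, among them genes of translation and of the cell cycle.

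The letters of the heat shock element were searched in promoters that hold the summit of a control-only gene-end peak. Promoter sequences came from RefSeq on GRCm38.p6 and run from 250 bases before to 50 bases after an annotated transcript start. The summit of 70 of the 461 peaks fell inside such a 300-base window of a protein-coding gene. The 2-unit strings GAANNTTC and TTCNNGAA were searched on both strands, with overlaps counted. GAANNTTC was present in 8 of the 70 windows (11.4%, 95% interval 5.07 to 21.3%), against 7.41% of all 17273 protein-coding promoters. TTCNNGAA was present in 3 (4.29%), against 7.62%. The 3-unit element, GAANNTTC followed by NNGAA, was present in 2 (2.86%, 0.348 to 9.94%), at Cep57 and Tra2b, against 0.469%. The summit of an NMDA-only peak, called only after NMDA, lay in 57 windows. GAANNTTC was present in 9 of these (15.8%, 7.48 to 27.9%), TTCNNGAA in 8 (14.04%) and the 3-unit element in 3 (5.26%). Of 8 windows with the summit of a control peak that overlapped an NMDA peak, 3 had GAANNTTC, 2 TTCNNGAA and 2 the 3-unit element. These shares were all higher than in the 70 control-only windows, and the differences were not tested. The 8 control-only windows with GAANNTTC belonged to Mfap1a, Nod1, Cep57, Nosip, Mpv17, Hbq1b, Ano3 and Tra2b. The stretches of 30 bases below hold the 3-unit elements, the 3 elements closest to a summit and a further element of the Mfap1a window, with the matched bases in capitals.
Cep57, chr9:13827274-13827303, minus strand: cgctGAAGGTTCCAGAAgccctagcctttg
Tra2b, chr16:22266191-22266220, minus strand: gttctctaGAAGGTTCCAGAAacgagtgtg
Mpv17, chr5:31154202-31154231, minus strand: cggtcacgtgagaGAAGGTTCtgcgcagag
Hbq1b, chr11:32286715-32286744, plus strand: ggaaaacctgtGAAGTTTCcgaacgactcg
Mfap1a, chr2:121506787-121506816, minus strand: ggaccttccagTTCTGGAAaatgtcgaagg
Mfap1a, chr2:121506849-121506878, minus strand: atctttaatacGAACCTTCttggaccttac

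The Cep57 and Tra2b elements had the same 13 letters. The Cep57 element, in the promoter that this centrosome gene shares with Fam76b, was centred 39 bp from the summit of a 2.98-fold peak. The Tra2b element, at a gene for a splicing regulator, was centred 239 bp from the summit of a 2.26-fold peak and lay outside the called interval. The Mpv17 element was centred 1.5 bp from its summit and the Hbq1b element 9.5 bp. Mpv17 encodes an inner mitochondrial membrane protein, and its peak had 2.71-fold enrichment. The Mfap1a window, at a gene for a spliceosome protein with a 3.02-fold peak, held a TTCNNGAA centred 10.5 bp from the summit and a GAANNTTC centred 51.5 bp from it.

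The strongest peaks with a summit inside such a window had none of these strings. The 250 bases before the start of 3 genes among the 25 highest peaks are shown, with the 21 bases centred on the summit in capitals.
Spsb4, chr9:97018356-97018605, minus strand: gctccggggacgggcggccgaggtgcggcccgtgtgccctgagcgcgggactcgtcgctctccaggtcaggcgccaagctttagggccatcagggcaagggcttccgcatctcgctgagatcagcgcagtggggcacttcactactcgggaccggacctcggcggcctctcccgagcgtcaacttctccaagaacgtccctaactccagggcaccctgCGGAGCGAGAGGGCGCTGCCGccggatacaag
Ets2, chr16:95702157-95702406, plus strand: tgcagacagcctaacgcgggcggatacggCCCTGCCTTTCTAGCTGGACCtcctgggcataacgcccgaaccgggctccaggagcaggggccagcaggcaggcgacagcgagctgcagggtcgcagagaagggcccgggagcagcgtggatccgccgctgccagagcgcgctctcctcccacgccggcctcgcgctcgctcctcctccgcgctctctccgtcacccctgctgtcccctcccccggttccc
Lig3, chr11:82780859-82781108, plus strand: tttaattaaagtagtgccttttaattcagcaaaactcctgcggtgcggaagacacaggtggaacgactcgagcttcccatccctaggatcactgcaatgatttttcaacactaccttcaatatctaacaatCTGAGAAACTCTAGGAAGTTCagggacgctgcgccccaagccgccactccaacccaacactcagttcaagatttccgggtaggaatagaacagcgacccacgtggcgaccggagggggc

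Spsb4 encodes an adaptor of ubiquitin ligases, Ets2 a transcription factor of the ETS family and Lig3 DNA ligase III. Their summits lay 22 bp, 211 bp and 109 bp before the start. The windows differed in composition. The bases shown were 68.4% G or C with 26 CG dinucleotides at Spsb4, 71.6% with 25 at Ets2, and 50.0% with 12 at Lig3.

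Control-only gene-end peaks were low and similar in height. Their fold enrichment, the authors' ratio of ChIP signal at the summit to background, ran from 1.63 to 4.11 with a median of 2.71 (95% interval of the median 2.67 to 2.77). Of the 461 peaks, 94 (20.4%) reached 3-fold, 11 (2.39%) reached 3.5-fold and 1 reached 4-fold. A q of 0.05 or less was listed for 353 peaks (76.6%, 95% interval 72.4 to 80.4%). Peaks that missed this limit included those at Lrriq3 (2.36-fold), Zfp54 (2.26-fold) and Phtf1 (2.10-fold) and the lower peak at Trim41 (2.01-fold). The Stub1 and Tra2b peaks, described in other paragraphs, had the same folds as the Lrriq3 and Zfp54 peaks, and the Psmd1 peak had 2.01-fold. The 461 peaks had 117 distinct fold values. The value 2.67 was shared by 43 of them and the value 2.77 by 40, so small steps in rank carry little information.

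The same list gives the scale for these heights. Control-only gene-end peaks had a median fold of 2.71, against 2.88 for the 29 gene-end peaks shared with the NMDA list and 2.61 for the 2757 control-only peaks away from gene ends. The 95% interval of the median was 2.67 to 2.98 for shared peaks and 2.57 to 2.66 for peaks away from gene ends. The highest value was 4.11 among control-only gene-end peaks, against 5.10 among shared gene-end peaks and 10.2 among control-only peaks away from ends. Enrichment reached 3-fold in 20.4% of control-only gene-end peaks, against 13.9% of control-only peaks lying away from ends. No test was made between these sets, since peaks are not replicates of a condition.

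**Figure D1:**
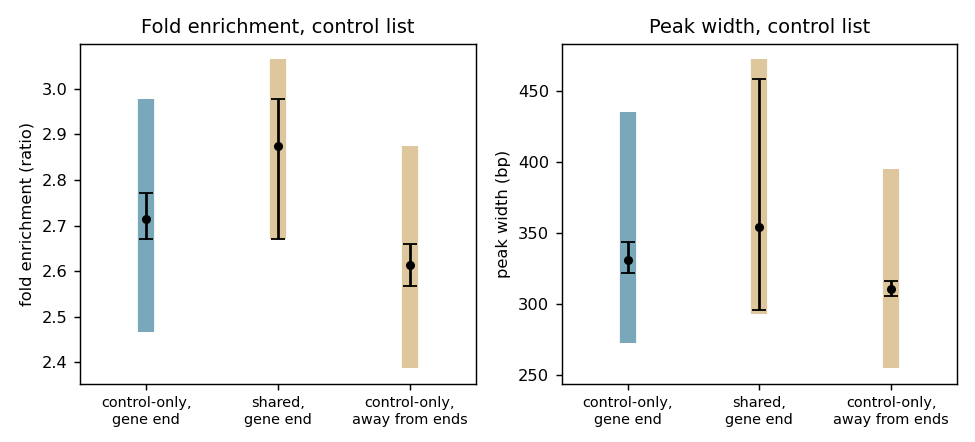
Fold enrichment (ratio, left panel) and peak width (bp, right panel) in the control list for control-only gene-end peaks, shared gene-end peaks and control-only peaks away from gene ends. Points are medians, whiskers their 95% intervals and bars run from the lower to the upper quartile. The axes do not start at 0. The medians of control-only gene-end peaks, 2.71-fold and 331 bp, lie between those of the other sets.

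Widths ranged from 173 to 1127 bp, with a median of 331 bp (95% interval 322 to 344 bp). The median was 354 bp for shared gene-end peaks and 311 bp for control-only peaks away from ends. The widest peak was at Etf1, the gene for a translation release factor, with 1127 bp and 2.57-fold enrichment. Mfsd4b1 (927 bp), Gng10 (926 bp), Csmd3 (862 bp) and Psap (860 bp) followed. Psap encodes prosaposin, a precursor of lysosomal activator proteins. The narrowest peaks were those at Dusp5 (173 bp), Zfp54 (174 bp), Lrriq3 (177 bp), Tcea1 (178 bp) and Smarca2 (181 bp). Over the 461 peaks the rank correlation of fold with width was -0.16 and that of fold with summit distance -0.04, as a description of 1 list.

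Most control-only gene-end peaks lay at transcription starts. The strand of the nearest gene was given for 376 peaks, and in 344 of them the nearer end was the 5′ end (91.5%, 95% interval 88.2 to 94.1%), although each gene has 1 end of each kind. The remaining 32 lay nearest a 3′ end, and 3 of those had an annotated transcript start within 1000 bp. The strand was not given for 85 peaks, among them all 7 on chromosome 18, so the results on 5′ ends, CG content and strings leave out that chromosome. Peaks at 5′ ends had a median fold of 2.74 and a median width of 337 bp. Peaks at 3′ ends had 2.73-fold and 301 bp. Among the 3′ peaks were those at Homer2, a postsynaptic scaffold gene (2.67-fold, 522 bp past the end), Kcna4, a potassium channel gene (2.67-fold, 70 bp before the end), and Sec31a, a COPII coat gene (2.88-fold, 111 bp before the end). NMDA-only gene-end peaks lay nearest a 5′ end in 231 of 272 cases (84.9%, 80.1 to 89.0%).

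Summits were spread around the start and more often lay inside the gene. Of the 344 peaks at 5′ ends, 210 had the summit downstream of the start and 134 upstream. The median position was 136.5 bp inside the gene (95% interval 80 to 205 bp), and the lower and upper quartiles were 248 bp upstream and 521.5 bp inside. The share with a summit within 250 bp of the start was 35.2% (30.1 to 40.5%). For the 231 NMDA-only peaks at 5′ ends the median was 89 bp inside, and 46.3% (39.8 to 53.0%) lay within 250 bp. The bin from 250 bp upstream to the start held 13.95% of control-only peaks and 23.4% of NMDA-only peaks. The difference was not tested.

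**Figure D2:**
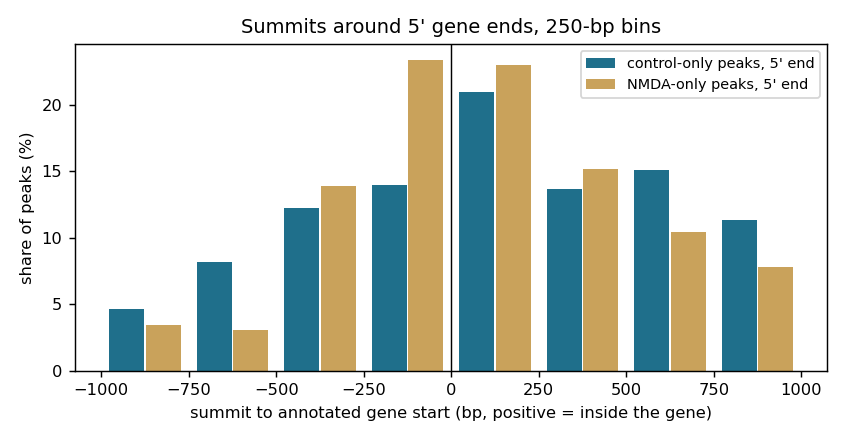
Share of peaks (%) by position of the summit relative to the annotated 5′ gene end (bp, 250-bp bins, positive inside the gene) for 344 control-only peaks and 231 NMDA-only peaks. Control-only summits have 20.9% in the bin just inside the gene and 13.95% in the bin just upstream, against 22.9% and 23.4% for NMDA-only summits.

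Over all 461 peaks the distance from the summit to the nearer gene end had a median of 402 bp, 155 summits (33.6%) lay within 250 bp and 54 (11.7%) within 100 bp. The closest were those at the zinc finger gene Zfp775 (1 bp, 2.98-fold), the tyrosine kinase gene Fyn (2 bp, 2.81-fold), Zfp623 (6 bp, 2.21-fold), Zgrf1 (7 bp, 2.77-fold) and Phtf1 (13 bp, 2.10-fold). Fold differed little with distance. The median was 2.76 for summits up to 250 bp from the end, 2.71 for those beyond 250 and up to 500 bp, 2.67 beyond 500 and up to 750 bp, and 2.73 beyond 750 bp. At the limit of the window, the peaks at Bicral (990 bp, 2.61-fold) and Leprotl1 (989 bp, 2.60-fold) were just inside. Those at Cdh20 (1001 bp, 2.86-fold) and Adora1 (1004 bp, 2.98-fold) were just outside.

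Promoters at these sites were rich in CG dinucleotides, as are the promoters of many broadly expressed genes. The promoters of the 380 genes with a control-only peak at the 5′ end had a median of 23 CG dinucleotides in 300 bases (95% interval 22 to 24) and 62.3% G or C, against 14 and 56.3% over the 17273 protein-coding genes in the table. NMDA-only 5′ peaks marked 268 genes, with a median of 22 and 60.7%. The genes were divided into 4 groups by CG count, with ties split between neighbouring groups. A control-only 5′ peak was present at 12 of 4319 genes in the group with the fewest CG (0.278%), 48 of 4318 in the second (1.11%), 155 of 4318 in the third (3.59%) and 165 of 4318 in the group with the most (3.82%).

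**Figure D3:**
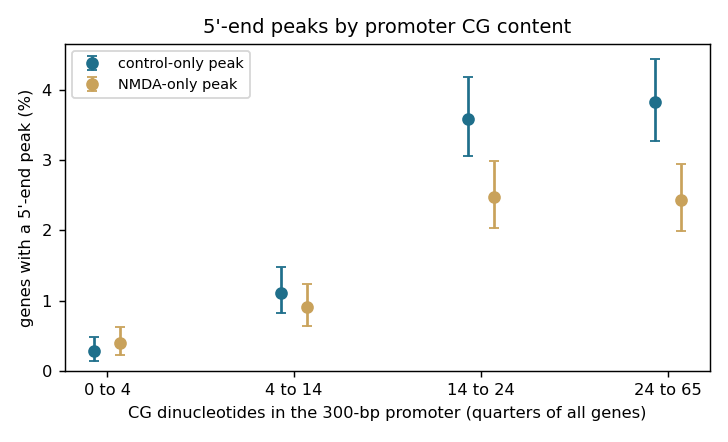
Share of protein-coding genes (%) with a 5′-end peak, by CG dinucleotides in the 300-base promoter, in 4 groups of 4318 or 4319 genes. Points are shares and whiskers exact 95% intervals. Control-only peaks mark 0.278% of genes in the group with the fewest CG and 3.82% in the group with the most, and NMDA-only peaks 0.394% and 2.43%.

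The same letters were counted in the promoters of all genes with a control-only peak at the 5′ end, wherever the summit lay. GAANNTTC was present in 4.74% of the 380 promoters (95% interval 2.83 to 7.38%), against 7.84% of the 268 NMDA-only promoters and 7.41% of all 17273. TTCNNGAA was present in 4.47%, against 10.4% and 7.62%. The 3-unit element was present in 3 of 380 (0.789%, 0.163 to 2.29%), against 7 of 268 (2.61%) and 81 of 17273 (0.469%). The 3 genes were Cep57, Tra2b and Mettl23, a methyltransferase gene whose 2.77-fold peak had its summit 967 bp upstream. CG content moves with these strings. Among promoters with at least the median CG count, GAANNTTC was present in 4.06% of control-only promoters, 6.13% of NMDA-only promoters and 4.83% of all. Absence of the letters in a 300-base window says nothing of HSF1 outside it.

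Other promoter strings, chosen after the data were examined, were counted in the same way. The GC box GGGCGG was present in 67.4% of control-only promoters, 63.8% of NMDA-only promoters and 46.9% of all promoters. The ETS string CCGGAAG was present in 19.2%, 18.7% and 12.04%, the CRE string TGACGTCA in 4.21%, 3.73% and 2.37%, and CCAAT in 38.9%, 38.4% and 39.4%. The NRF1 string, GCGCA followed by TGCGC, was present in 1.84%, 2.61% and 1.34%, and the YY1 string, AAGATG followed by GCGG, in 0.789%, 2.24% and 1.27%.

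The strongest control-only gene-end peaks marked genes of varied function. The highest, 4.11-fold, lay 318 bp inside Dock4 (chromosome 12, 40446130 to 40446621), which encodes an activator of Rac and Rap GTPases. Zfp277 starts 485 bp from the same summit, in the opposite direction. The next lay 245 bp inside Ttc21a, for a ciliary transport protein (3.90-fold, chromosome 9, 119937680 to 119937929). Gorasp1, for a Golgi stacking protein, also starts within 1000 bp of it. Marchf8 (3.78-fold, chromosome 6, 116337570 to 116337848) encodes a membrane-bound ubiquitin ligase. Spsb4 had 3.72-fold (chromosome 9, 97018235 to 97018835) and Hddc3, for a nucleotide hydrolase, 3.70-fold (chromosome 7, 80343126 to 80343647). Sec11a, for the catalytic subunit of signal peptidase, had 3.70-fold (chromosome 7, 80947421 to 80947823). Ets2 had 3.63-fold (chromosome 16, 95701977 to 95702291).

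Of the next places, Macroh2a2, for a histone variant, Efcab5 and Epdr1 had 3.59-fold each. The Efcab5 peak also lay at the end of Ssh2, for a phosphatase that activates cofilin. Cst3, for the protease inhibitor cystatin C, had 3.56-fold, Zfp383 3.49-fold, Foxn3, for a forkhead repressor, 3.46-fold and Mreg 3.42-fold. A fold of 3.39 was listed for peaks at Hexim1, an inhibitor of the elongation factor P-TEFb, Sft2d2, Lig3, Rnf11, Vmn2r25, Tmem38a and the pair Pgap2 and Nup98. Gpr22, Fbn1, for the matrix protein fibrillin, and Ppp3ca, for a catalytic subunit of calcineurin, had 3.32-fold. Of the 25 highest peaks, 21 lay nearest a 5′ end, 1 nearest a 3′ end and 3 at a gene without a given strand.

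**Figure D4:**
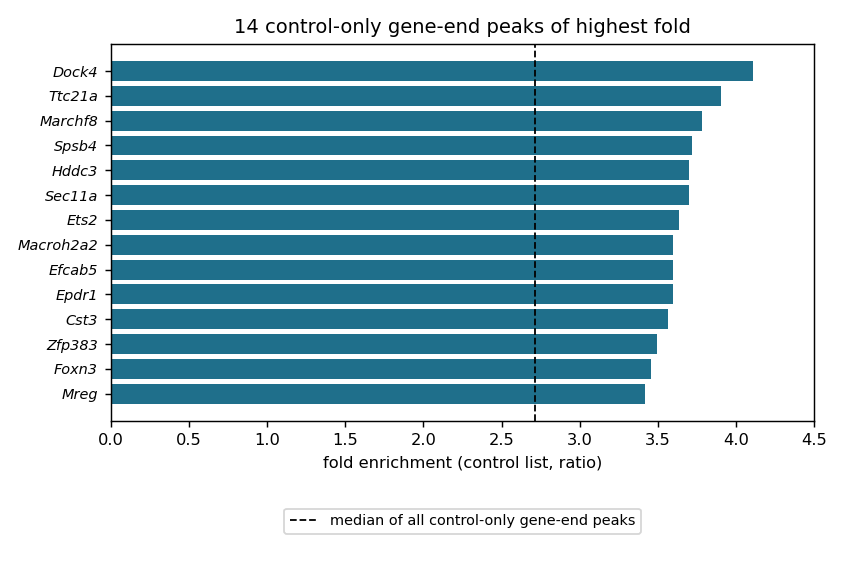
Fold enrichment (ratio, horizontal axis from 0) of the 14 control-only gene-end peaks of highest fold, each named by the nearest gene. Bars run from 4.11 at Dock4 to 3.42 at Mreg, all to the right of the dashed median of 2.71.

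The 461 peaks marked 516 protein-coding genes, 2.39% of 21627. NMDA-only gene-end peaks marked 1.75% of genes, any NMDA gene-end peak 1.93% and any control gene-end peak 2.55%. Of these, 116 were in at least 1 of 28 gene lists and 400 in none. A share above 2.39% was found in 17 lists and a lower one in 11, 4 of which had no gene. A control-only gene-end peak was present at 4 of 109 chaperone and heat shock genes (3.67%, 95% interval 1.01 to 9.13%), a share whose interval holds the 2.39% of all genes, with a median fold of 2.62. NMDA-only gene-end peaks were present at 17 of these genes (15.6%).

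The 4 chaperone genes were the small heat shock protein gene Hspb6 (3.08-fold), the polyubiquitin gene Ubb (2.67-fold), Fkbp5, for a cochaperone of HSP90 (2.57-fold), and Stub1, for a ubiquitin ligase that acts with chaperones (2.36-fold). None had its summit within 250 bp of its start. The distances were 380 bp upstream at Hspb6, 952 bp upstream at Ubb, 800 bp inside Fkbp5 and 470 bp upstream at Stub1. The Hspb6 site (chromosome 7, 30551980 to 30552288) lay nearer to Proser3, 238 bp from its start. An NMDA peak of 2.90-fold began 25 bp from it, and one of 3.68-fold lay 761 bp from the Ubb site.

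In the ubiquitin list 13 of 345 genes had a control-only gene-end peak (3.77%, 2.02 to 6.36%), and in the proteasome list 3 of 51 (5.88%, 1.23 to 16.2%). Both intervals hold the 2.39% of all genes. Beside Marchf8 (3.78-fold) and Rnf11 (3.39-fold), the highest of the ubiquitin list were Ube2cbp, now called Ube3d, a ubiquitin ligase gene (3.21-fold), and Usp5, for a deubiquitinase (3.10-fold). The proteasome genes were Psmd5, for an assembly chaperone of the regulatory particle (2.68-fold), Psmd11 (2.16-fold) and Psmd1 (2.01-fold), for subunits of it. All 3 proteasome summits lay at 5′ ends, 451 bp inside Psmd5, 214 bp inside Psmd11 and 206 bp upstream of Psmd1.

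Translation factor genes had 6 of 70 marked (8.57%, 3.21 to 17.7%), against 2.39% of all genes. NMDA-only peaks marked 1 of 70 (1.43%), near their 1.75% of all genes. Eef2k, for the kinase that inhibits elongation factor 2, had 3.18-fold 462 bp inside the gene. Eif4b, for a cofactor of the cap-dependent helicase, had 3.08-fold 828 bp upstream. Eif3i had 3.08-fold, with the summit 598 bp from its end and nearer to Tmem234, 577 bp inside that gene. Eif6 had 2.57-fold and Eif3j1 2.36-fold. Eif3m had a pair of peaks, 2.69-fold 790 bp inside and 2.67-fold 101 bp upstream of the start. Cytosolic ribosomal protein genes had 2 of 85 (2.35%), Rpl23a (2.56-fold) and Rpl22l1 (2.31-fold). Mitochondrial ribosomal protein genes had 1 of 78 (1.28%, below the share of all genes), Mrpl50 (3.08-fold, a peak shared with Zfp189).

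Immediate early genes, transcribed within minutes of neuronal activity, had 6 of 44 marked (13.6%, 95% interval 5.17 to 27.4%). The share of all genes was 2.39%. NMDA-only gene-end peaks marked 1 of 44 (2.27%), near their 1.75% of all genes. Any NMDA gene-end peak marked 2 of 44 (4.55%). The matricellular gene Ccn1 had 3.08-fold, 402 bp inside the gene. Dusp5, for a nuclear MAP kinase phosphatase, had 2.98-fold, 415 bp upstream. Tiparp, for an ADP-ribosyltransferase, had 2.88-fold, 574 bp upstream. Homer1, for a postsynaptic scaffold, had 2.83-fold, 867 bp inside. Plk2, for a kinase of synaptic scaling, had 2.67-fold, 150 bp inside, and Klf6, for a zinc finger factor, 2.46-fold, 518 bp inside. All 6 lay nearest a 5′ end. Near Plk2 a 2.80-fold NMDA peak lay 291 bp from the control-only peak, and inside Homer1 a 2.56-fold NMDA peak lay 1358 bp from it. With a window of 500 bp, 3 of these genes were left.

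Phosphatase genes had 8 of 139 marked (5.76%, 2.52 to 11.03%), with Dusp5 counted in both lists. Ppp3ca had 3.32-fold (chromosome 3, 136669586 to 136670194). Dusp10, for a phosphatase of stress-activated MAP kinases, had 3.29-fold 645 bp upstream and 3.08-fold 547 bp inside, and the divergent gene 1700056E22Rik also starts between these sites. Ptpn4 had 2.98-fold, Ptprs, for a receptor phosphatase of axons, 2.77-fold, and Dusp4 2.41-fold. MAP kinase genes had 1 of 54 (1.85%), Map2k2 (2.57-fold), below the 2.39% of all genes.

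Genes of nuclear functions were marked as follows, beside 2.39% of all genes. Zinc finger genes had 19 of 468 (4.06%, 2.46 to 6.27%), led by Zfp277, Zfp383 (3.49-fold), Zfp148 (3.08-fold) and Zfp189 (3.08-fold). The Zfp277 peak is that of Dock4, and the Zfp189 peak is that of Mrpl50. RNA processing genes had 6 of 166 (3.61%), and NMDA-only peaks also marked 6 of the 166. The control-only ones were led by the splicing factor genes Srsf6 (2.92-fold) and Sf3b4 (2.91-fold), the helicase gene Ddx11 (2.72-fold) and Rbm39 (2.67-fold). Ddx11 was counted here by its symbol. Chromatin genes had 2 of 115 (1.74%, below the share of all genes), the remodeller genes Chd7 (3.08-fold) and Smarca2 (2.77-fold). RNA polymerase and mediator genes had 2 of 113 (1.77%, also below it), Polr3k (2.67-fold) and Taf6l (2.26-fold). Centrosome and cell cycle genes had 6 of 119 (5.04%, 1.87 to 10.7%), an interval that holds the share of all genes. They were led by Cep57 (2.98-fold), Ccnt2 (2.98-fold), Mcm9 (2.73-fold) and Cep350 (2.51-fold). Ccnt2 was counted by its symbol and belongs to the P-TEFb genes described below.

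Repair and cohesin genes had 2 of 37 marked (5.41%, 0.661 to 18.2%), Lig3 (3.39-fold) and Top2b. The interval holds the 2.39% of all genes. Top2b encodes topoisomerase IIβ, an enzyme that relieves DNA torsion and is named in the title of the series. Its control-only peak, 2.47-fold at chromosome 14, 16365239 to 16365544, had its summit 116 bp inside the gene and was the weakest of the pair. Inside Top2b 13 NMDA summits were listed, up to 11.5-fold, and the nearest lay 24222 bp from it.

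Vesicle traffic genes had 10 of 245 marked (4.08%, 1.97 to 7.38%), an interval that holds the 2.39% of all genes. Sec11a, a signal peptidase gene, was counted here by its symbol. Beside it the list was led by the sorting gene Snx3 (3.08-fold), the tethering gene Vps33b (3.08-fold) and Snx18 (2.98-fold). Mitochondrial genes had 6 of 177 (3.39%), led by Slc25a28, for an iron carrier (2.88-fold), Timm21, for a subunit of the inner membrane import complex (2.74-fold), Cox6a1 (2.57-fold) and Ndufs3 (2.503-fold), for respiratory chain subunits. Motor genes had 3 of 70 (4.29%), the kinesin genes Kif20b (2.88-fold) and Kif23 (2.36-fold) and the dynein gene Dync1i2 (2.67-fold). Small GTPase regulators had 3 of 119 (2.52%), Dock4, Arhgef28 (2.67-fold) and Tbc1d19 (2.46-fold). Autophagy and lysosome genes had 2 of 74 (2.70%), Atp6v1h (2.60-fold) and Lamtor4 (2.28-fold).

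Ion channel and synaptic genes had shares near that of all genes. Ion channel genes had 5 of 168 (2.98%), namely Kcnv1 (2.77-fold), Kcna4 (2.67-fold), the calcium channel subunit genes Cacnb2 (2.45-fold) and Cacna2d1 (2.36-fold), and Kcnh7 (2.21-fold). Synaptic genes had 2 of 74 (2.70%), the glutamate receptor gene Grm8 (2.77-fold) and Homer2. Solute carriers had 4 of 328 (1.22%), led by Slc9a3r1 (2.77-fold), an adaptor gene that shares the name, Slc30a10 (2.67-fold) and Slc50a1 (2.16-fold), with Slc38a6 at 2.01-fold. None of the 15 neuron, 9 astrocyte, 10 microglia and 10 oligodendrocyte markers had one, which for neuron markers allows a share of up to 21.8% by the exact interval. Olfactory and vomeronasal receptor genes had 1 of 1465 (0.0683%), a 3.39-fold peak past the 3′ end of Vmn2r25.

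**Figure D5:**
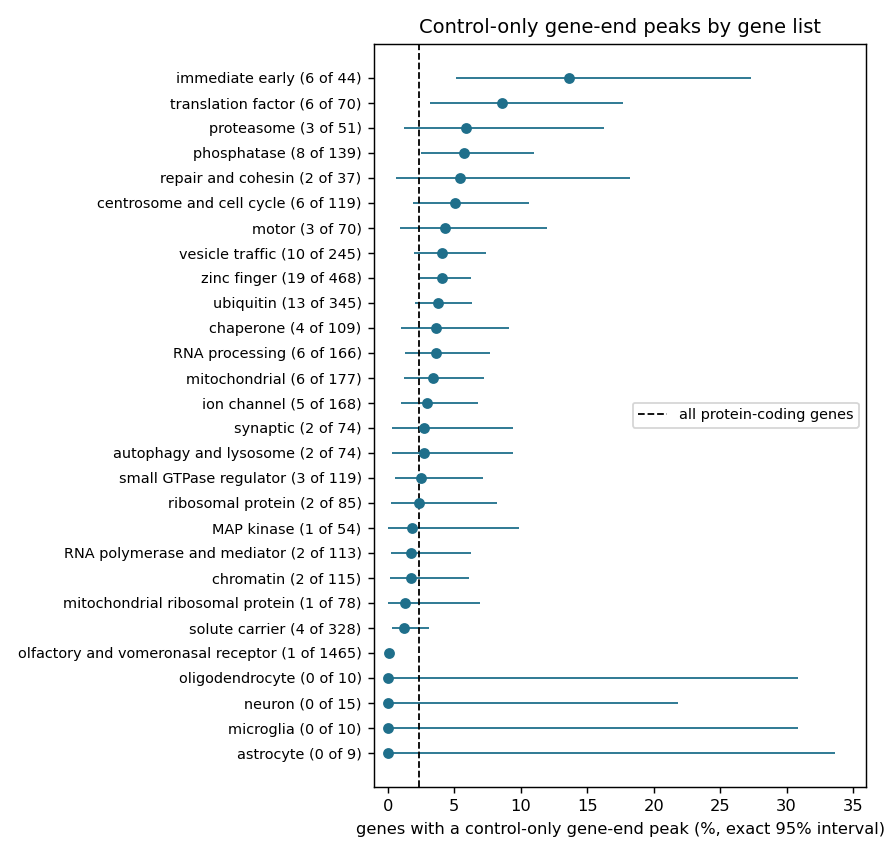
Share of genes (%) with a control-only gene-end peak in each of 28 gene lists, with exact 95% intervals that cover counting error only. The dashed line is the 2.39% of all protein-coding genes. Immediate early genes stand at 13.6% and translation factors at 8.57%, and olfactory and vomeronasal receptors at 0.0683%.

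Some summits lay close to the ends of several genes. The ends of 2 or more protein-coding genes were within 1000 bp of 61 summits (13.2%, 10.3 to 16.7%), and 2 of these had 3 genes. In 41 of the 61 the summit lay inside the nearest gene. Of the 59 with 2 genes, 39 had a pair of 5′ ends, 8 had a 5′ and a 3′ end, none had a pair of 3′ ends and 12 lacked a strand. Such pairs included Tmem38a and Smim7 (3.39-fold), Dst and Bend6 (3.18-fold), Bbs12 and Cetn4 (3.18-fold), Prn and Prnp, the prion protein gene (3.11-fold), and Cdca3 and Usp5 (3.10-fold). The end of a noncoding gene was within 1000 bp of 69 summits (15.0%). At these sites the gene that the peak belongs to cannot be told apart by distance.

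A pair of control-only peaks was found at 8 genes, and at no gene more. Zfp383 had 3.49-fold and 2.67-fold, Gpr22 3.32-fold and 2.56-fold, and Trim41 2.98-fold and 2.01-fold. Wdr76 and Mfap1a, which start in opposite directions, shared 3.02-fold and 2.67-fold. The others were Eif3m and the pair Dusp10 and 1700056E22Rik, given above. Genes with a control-only gene-end peak had a median length of 26233 bp, against 24047 bp for genes with an NMDA-only gene-end peak and 17330 bp for all protein-coding genes.

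The 1-bp rule for overlap decided few cases. The nearest NMDA peak lay at a median of 220537 bp. It lay within 1000 bp of 17 peaks (3.69%) and within 10000 bp of 31 (6.72%). Close pairs without overlap were at Proser3 and Hspb6 (25 bp), Abcc5 (91 bp), Stc2 (113 bp) and Cdc40 and Wasf1 (126 bp). At the other side of the rule, the smallest overlaps were 9 bp at Zfp142 (2.36-fold) and 41 bp at Ddx31 (2.88-fold). Counting an NMDA peak within 1000 bp as overlap left 444 peaks and 2 of the 4 chaperone genes, Fkbp5 and Stub1.

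An NMDA peak was present at an end of 25 of the 516 genes with a control-only gene-end peak (4.84%), against 1.93% of all protein-coding genes. An NMDA summit lay inside 53 of the 516 (10.3%), against 6.57% of all. Either was present at 69 of the 516 (13.4%), against 7.37% of all, and 447 of the 516 had neither. The 516 genes also had the longer median length, given above, and its part in these shares was not tested. Some genes had both. At Bbs12 the values were 3.55-fold in the NMDA list and 3.18-fold in the control list. At Abcc5, for a membrane transporter, they were 4.36-fold and 2.57-fold, and at Stc2, for the glycoprotein stanniocalcin, 2.95-fold and 3.29-fold. Inside Foxn3 and Ppp3ca the NMDA peaks had 2.80-fold and 2.58-fold, and inside Nalcn, a sodium leak channel gene, 2.89-fold. The control-only values there were 3.46-fold, 3.32-fold and 3.22-fold. Each list has its own scale, so these pairs are given side by side and were not compared.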

How the data were processed

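HSF1 ChIP-seq was deposited as 2 peak lists, 1 per condition, and the control list was the main source. Per the submitters' processing notes, MACS2, BWA, Trimmomatic, SAMtools and FastQC were used (no versions), with GRCm38.p6, also called mm10. The sources used here do not give how libraries were combined. For each peak the authors deposited a score, a fold enrichment (a ratio scaled within its list), −log10 p and −log10 q values (p-value and q-value of the peak), and the summit offset. Depth is unknown.

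Positions were read as 1-based. Gene ends came from the RefSeq table of GRCm38.p6 (21627 protein-coding genes), with the strand from its promoter table for 17273, none on chromosome 18. Genes were counted in a list when any end lay within 1000 bp of a summit. Lists were made by gene symbol, so a gene of another function can be counted. Medians carry 95% order-statistic intervals and shares exact Clopper-Pearson 95% intervals, for counting error only. Scripts used Python 3.11.15, pandas 2.3.3 and scipy 1.17.1, and the overlap and distance steps were tested on simulated data. No test was made, since peaks and genes are not replicates. Peaks, lists and named genes (the 25 highest peaks, all genes of the chaperone, immediate early, synaptic, proteasome and repair lists, up to 4 of other lists by fold, extremes of width and distance, genes with several peaks or an NMDA peak, and genes at a heat shock element) were chosen with earlier results of these data known. Strings other than heat shock elements and the CG groups were chosen after the data were examined. Results at some named genes are not reported here. Alternatives changed the window, the overlap rule, the q limit and the summit position.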

Additional observations from a re-analysis of the deposited data

How the results depend on the processing

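Of 32 planned values 20 stayed within their interval or within 1.5 times the count, and of 13 added after the data were examined 10 did. With a window of 500 bp there were 279 peaks (8.67% of control-only peaks) at 308 genes, 55.6% of summits lay within 250 bp, the median distance was 232 bp, 29 peaks lay at several genes, and 3 immediate early and 2 chaperone genes were marked. With 2000 bp the share was 20.0%, the median distance 593 bp, 24.0% lay within 250 bp and 94 peaks lay at several genes. These follow from the window itself. With NMDA peaks within 1000 bp counted as overlap, 2 chaperone genes were left. With a q of 0.05 or less the share was 16.05%, the median fold was 2.81, and 5 immediate early and 3 chaperone genes were marked. The share at 5′ ends was between 88.8% and 92.9% in the 4 settings. Without the shift to 1-based positions there were 462 peaks.

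Leaving out a replicate was not run, since 1 list covers a whole condition. No paired analysis was possible because replicates have no separate peak values.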

Other observations

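Some groups of related genes were noticed after the values were seen and carry no test. P-TEFb, the kinase that releases paused RNA polymerase II, is held inactive in a small nuclear ribonucleoprotein. Of 7 genes of this system 3 had a control-only gene-end peak, Hexim1 (3.39-fold, 512 bp upstream), Ccnt2 (2.98-fold, 612 bp upstream) and Larp7 (2.77-fold, shared with Zgrf1), and none had an NMDA gene-end peak. Cdk9, Ccnt1, Hexim2 and Mepce had none in the control-only set. Of 24 dual specificity phosphatase genes 3 were marked, Dusp4, Dusp5 and Dusp10, and of 14 eIF3 genes 3, Eif3i, Eif3j1 and Eif3m. Neither group had an NMDA gene-end peak. Of 17 eIF4 genes 1 was marked, Eif4b, and 1 had an NMDA gene-end peak. Of all protein-coding genes 2.39% were marked and 1.93% had an NMDA gene-end peak. At that share, none is the usual count in groups of 7 to 24 genes.

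Control-only gene-end peaks marked 2.39% of all protein-coding genes, and the share varied by chromosome. No interval was computed for single chromosomes, and the variation was not tested. The share of protein-coding genes marked was highest on chromosome 12 (4.12%, 28 of 679) and lowest among autosomes on chromosome 18 (1.37%, 7 of 510). None of the 966 genes on X was marked, and 3 control peaks of any kind lay on X. The share of control-only peaks at gene ends was 14.3% over all chromosomes, and among autosomes ran from 6.36% on chromosome 18 to 24.5% on chromosome 11.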
